A study of Caenorhabditis elegans with 14 samples.

Results

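Insulin-like peptides are small secreted hormones, and Caenorhabditis elegans carries an expanded family of genes for them. Members were the genes whose public name in the deposited table begins with ins- followed by a digit, plus daf-28, which gave 40 of the 20411 genes in the table. They lie on chromosomes I (10 genes), II (16), III (5), IV (4), V (3) and X (2 genes, ins-9 and ins-39). RNA was taken from whole worms of 2 strains that uncouple sex from the number of X chromosomes. TY2205 animals are hermaphrodites with 1 X chromosome, called XO hermaphrodites here, and the strain is known to carry mutations in her-1, sdc-3 and xol-1. CB5362 animals are males with 2 X chromosomes, called XX males here, and the strain is known to carry mutations in tra-2 and xol-1, so that the xol-1 mutation is shared by all groups. The labels name the strains and no alleles. There were 3 libraries of XO hermaphrodite L3 larvae, 3 of XX male L3 larvae, 3 of XO hermaphrodite young adults and 4 of XX male young adults. Larvae grew for 24 h after hatching overnight, at a temperature that the labels do not give, and young adults grew for 44 h at 25 °C. A TY2205 young adult library that its submitters marked as reverted was left out throughout. Each strain stands for 1 sex and 1 X chromosome number, so that strain, sex and X number cannot be told apart in any comparison of the animals.

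In C. elegans, insulin-like peptides bind DAF-2, the single receptor of the insulin and IGF type in this animal. Active DAF-2 signals through the phosphoinositide 3-kinase AGE-1 and the kinase AKT-1 and keeps the transcription factor DAF-16, a FOXO protein, out of the nucleus. Some family members, such as DAF-28, INS-4, INS-6 and INS-7, are known as agonists of DAF-2, whereas INS-1, INS-17 and INS-18 are known for antagonistic effects. Many are made in sensory and other neurons, and some in the intestine. The pathway is known for its control of dauer arrest, reproductive growth, germline proliferation and lifespan.

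Expression was deposited as FPKM (fragment counts scaled by transcript length and by library size), which corrects for length, so that levels can be set side by side between genes. The sum of FPKM over all genes was 1317414 to 1574087 in XO hermaphrodite L3, 1216741 to 1289639 in XX male L3, 916127 to 940071 in XO hermaphrodite young adults and 1159056 to 1298816 in XX male young adults, and did not overlap between the animals at either stage. Read depth is not recorded. Relative depths read from the steps between low values were 0.224 to 0.919 in the larval and 0.619 to 1.459 in the adult libraries, on a scale where XX male young adult replicate 1 is 1. At L3 they were 0.224 to 0.293 in replicates 1 and 2 of both animals. In L3 replicate 3 they were 0.799 (XO hermaphrodites) and 0.919 (XX males). The median SD of a gene on the log2 scale was 0.36 and 0.35 in the L3 groups and 0.18 and 0.20 in the young adult groups. Of the XX male L3 libraries, replicate 1 stood apart in markers of sperm, whose summed level of 16 genes was 564 FPKM there, 38.1 FPKM in XX male L3 replicate 3 and 7.11 to 18.9 FPKM in the other L3 libraries. Among XX male young adults, replicate 4 had the highest summed neuron, intestine and sperm markers and the lowest summed hypodermis markers. In none of the 13 libraries was xol-1 above 0 FPKM. No label says whether replicates are separate cultures, and the p-values below then measure the spread between these libraries, which may be technical.

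The family sum was dominated by a few genes in larvae and in XX male young adults. The summed level of the 40 genes was 690 to 1305 FPKM in XO hermaphrodite L3, 607 to 1088 FPKM in XX male L3, 160 to 212 FPKM in XO hermaphrodite young adults and 1061 to 1916 FPKM in XX male young adults. The ranges of the L3 groups overlapped, and those of the young adult groups did not. A single gene, ins-27 on chromosome I, had the highest group mean in both L3 groups and in XO hermaphrodite young adults, and made 34.04 to 47.9% of the family sum in XO hermaphrodite larvae and 38.7 to 57.1% in XX male larvae. Its share in XO hermaphrodite young adults was 9.28 to 17.2%, and in replicate 2 of that group daf-28 and ins-17 stood above it. In XX male young adults another gene, ins-31 on chromosome II, came first and made 45.8 to 55.9% of the sum. Without these genes the family sum was 431 to 680, 316 to 595, 145 to 176 and 407 to 576 FPKM in the same order of groups, so the adult groups stayed apart. Between 26 and 36 of the 40 genes were above 0 in a given library.

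**Figure D1:**
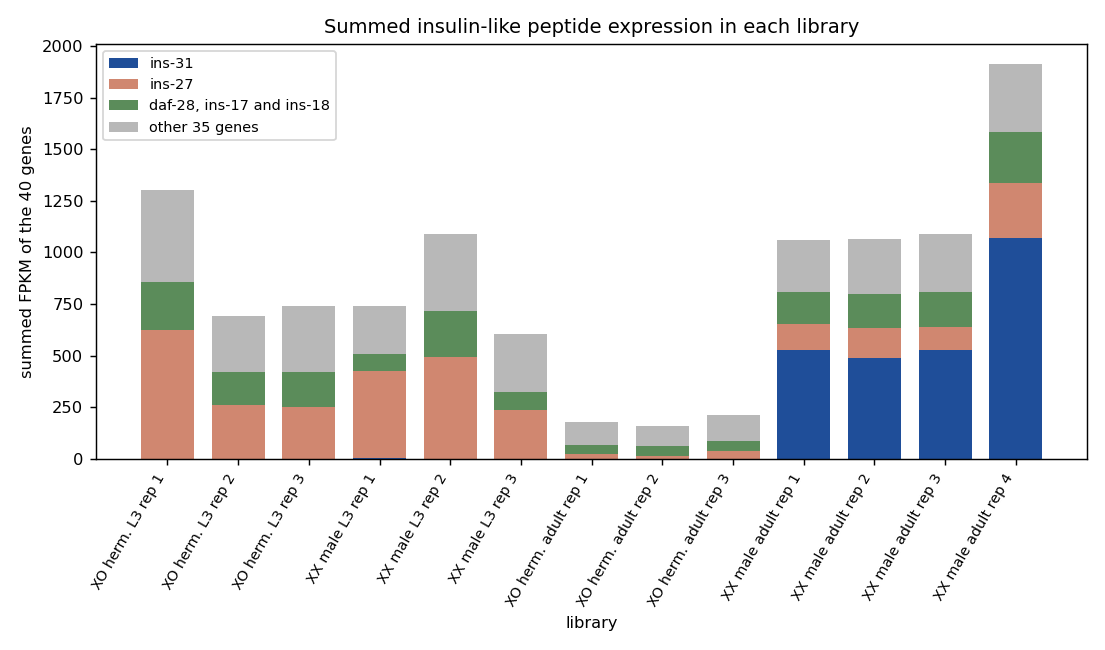
Bars give the summed FPKM of the 40 insulin-like peptide genes in each of the 13 libraries, split by colour into ins-31, ins-27, the genes daf-28, ins-17 and ins-18 together, and the rest. The bars of XO hermaphrodite young adults reach 160 to 212 FPKM and those of XX male young adults 1061 to 1916 FPKM, of which ins-31 makes the lowest block.

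**Figure D2:**
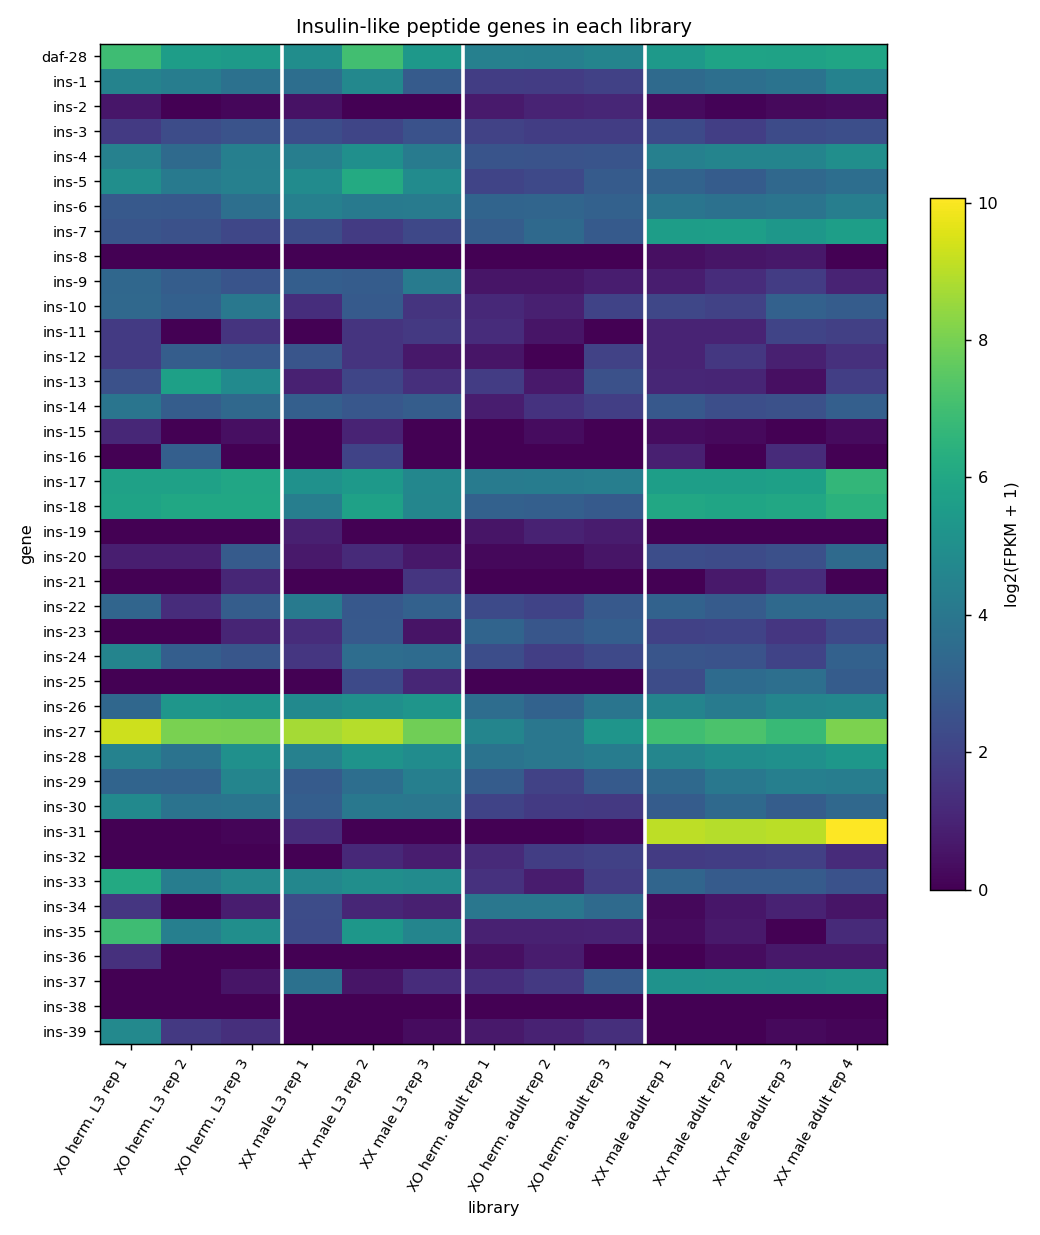
Colour gives log2(FPKM + 1) of each insulin-like peptide gene (rows) in each library (columns), with white lines between the 4 groups. The ins-31 row is dark in every library but those of XX male young adults, and the ins-27 row is bright in both L3 groups.

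A gene was tested where its mean over the 13 libraries was at least 1 FPKM, which 32 of the 40 members passed, and differences were fitted with limma on log2(FPKM + 1) over all 14628 genes that passed. Of these 32, ins-31 and ins-25 passed only through XX male young adults, where they are high, and ins-39 only through XO hermaphrodite L3 replicate 1. Counts and medians that include these genes depend in part on the filter. A gene is called where its Benjamini-Hochberg adjusted p is under 0.05. Fold changes are differences on that log2 scale, which understates the change of low genes.

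The young adult comparison asks how insulin-like peptide transcripts differ between adult XO hermaphrodites and XX males. Of the 32 tested members, 20 were lower in XO hermaphrodites, 1, ins-34, was higher, and 11 did not pass the test. The 20 include ins-31 and ins-25, which passed the filter only through the XX males compared here. Of all 14628 genes 33.3% were called lower and 33.9% higher in this comparison. The median log2 fold change was -1.08 over the members and -0.11 over all genes tested. The libraries of the groups did not overlap for 24 of the 32 members, against 75.6% of all genes. For 13 genes of the table values exist in the XX male young adult libraries alone, and whether that group was quantified in another way is not stated. In bulk RNA, fewer cells of a type and less RNA per cell cannot be told apart.

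Among the known agonists, ins-7 on chromosome IV, which acts in the intestine and neurons and is itself repressed by DAF-16, showed the largest difference. It was at 6.86, 9.804 and 6.13 FPKM in XO hermaphrodite young adults and at 47.8, 49.2, 39.1 and 49.6 FPKM in XX male young adults. All XX male libraries lay far above the XO hermaphrodite ones, a difference of -2.48 on the log2 scale (SE 0.21, limma adjusted p = 8.2e-07). For ins-4 on chromosome II, made in sensory and motor neurons, the values were 5.19, 5.03 and 5.20 FPKM against 19.9, 22.002, 22.3 and 30.1 FPKM. Its groups were again apart, at -1.98 (SE 0.26, limma adjusted p = 2.7e-05).

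The daf-28 gene on chromosome V, an agonist of sensory neurons that prevents dauer arrest, stood at 20.0, 19.2 and 22.6 FPKM in XO hermaphrodite young adults and 42.1, 56.6, 54.8 and 59.2 FPKM in XX male young adults. The groups did not overlap, and the difference was -1.32 (SE 0.45, limma adjusted p = 0.019). The daf-28 call was lost without XO hermaphrodite young adult replicate 1 (adjusted p = 0.0502), without replicate 2 of that group (0.0547) and with every library scaled to a common sum (-0.92, adjusted p = 0.105). Another agonist, ins-6 on chromosome II, which promotes exit from dauer arrest, was at 8.37, 8.71 and 7.81 FPKM against 14.2, 12.4, 13.5 and 18.6 FPKM. That difference was called at -0.74 (limma adjusted p = 0.0123), but not after quantile normalization (-0.58, adjusted p = 0.0726) or common sum scaling (-0.36, adjusted p = 0.157). The agonist ins-3, a neighbour of ins-4 known for promoting larval germline proliferation, was at 2.54 to 2.96 FPKM in XO hermaphrodites and 2.66 to 4.40 FPKM in XX males. Its groups overlapped and the difference of -0.33 did not pass the test (limma adjusted p = 0.216). The other peptide known for that role, ins-33 on chromosome I, was at 1.70, 0.721 and 2.48 FPKM against 8.79, 6.46, 6.50 and 4.81 FPKM and was called lower in XO hermaphrodites at -1.57 (limma adjusted p = 0.00281).

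Each of the known antagonists was lower in XO hermaphrodite young adults as well. The ins-18 gene on chromosome I was at 7.68, 7.33 and 6.19 FPKM in XO hermaphrodites and at 64.2, 59.5, 64.8 and 85.0 FPKM in XX males. This was the largest difference among the members with a known role, at -3.10 on the log2 scale (SE 0.28, limma adjusted p = 1.2e-06). The ins-1 gene on chromosome IV, a neuronal peptide used in sensory learning, was at 2.58, 2.49 and 2.83 FPKM against 10.0, 11.96, 13.3 and 21.2 FPKM, at -2.01 (SE 0.37, limma adjusted p = 3.7e-04). For ins-17 on chromosome III the values were 17.2, 17.7 and 19.007 FPKM against 49.2, 49.2, 52.1 and 99.2 FPKM, at -1.68 (limma adjusted p = 7.4e-05). Agonists and antagonists therefore lay on the same side of the comparison wherever they were called.

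**Figure D3:**
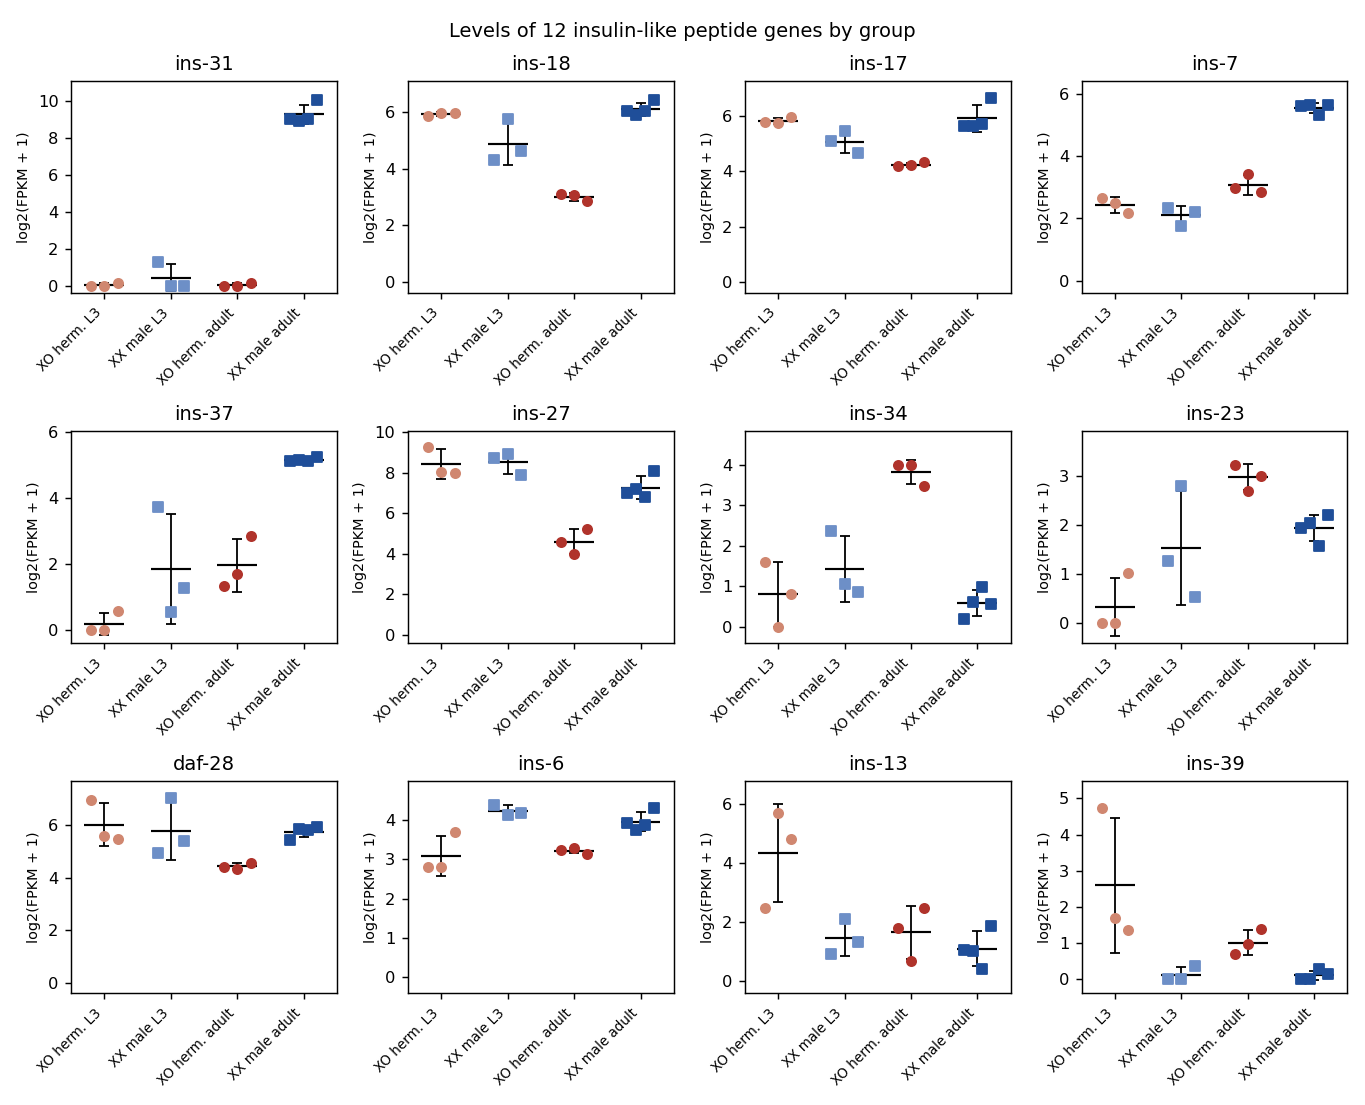
Points give log2(FPKM + 1) of 12 insulin-like peptide genes in each library, by group, with circles for XO hermaphrodites and squares for XX males; lines and bars give the group mean and SD. In young adults ins-31, ins-18, ins-17, ins-7, ins-37 and ins-27 are higher in every XX male library, and ins-34 in every XO hermaphrodite library.

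The largest differences of the family were in genes with less settled roles. In XO hermaphrodite young adults ins-31 was listed at 0, 0 and 0.118 FPKM, and in XX male young adults it stood at 528, 488, 527 and 1071 FPKM. It was the most abundant insulin-like peptide transcript of one group and near 0 in the other, and the fitted difference was -9.22 (SE 0.34, limma adjusted p = 2.1e-10). The ins-37 gene on chromosome II, which overlaps a noncoding RNA gene on the opposite strand in the WBcel235 annotation, was at 1.5002, 2.23 and 6.21 FPKM against 33.7, 34.7, 34.1 and 37.2 FPKM, a fold change of -3.21 on the log2 scale (SE 0.59, limma adjusted p = 3.8e-04). Next came ins-25 on chromosome I, listed at 0 in all 3 XO hermaphrodite libraries and at 4.11, 10.6, 11.7 and 6.61 FPKM in the XX male ones. Its fitted value was -3.12 (SE 0.43, limma adjusted p = 3.9e-05), which depends on the pseudocount and was -6.27 with 0.1 in place of 1.

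The ins-27 gene, the most abundant member in larvae, was at 23.04, 14.9 and 36.6 FPKM in XO hermaphrodite young adults and at 126, 147, 109 and 268 FPKM in XX male young adults. It was therefore lower in every XO hermaphrodite library, at -2.66 (SE 0.42, limma adjusted p = 1.0e-04). The ins-20 gene on chromosome II was at 0.170, 0.168 and 0.497 FPKM against 4.22, 3.98, 4.55 and 10.2 FPKM, at -2.32 (SE 0.45, limma adjusted p = 5.9e-04; -3.94 with a pseudocount of 0.1). In the opposite direction, ins-34 on chromosome IV was at 14.9, 14.9 and 10.0 FPKM in XO hermaphrodites and 0.151, 0.518, 0.976 and 0.482 FPKM in XX males. The groups did not overlap, and the fold change was 3.23 on the log2 scale (SE 0.40, limma adjusted p = 1.7e-05). In the WBcel235 annotation ins-34 overlaps nkcc-1, a cation-chloride cotransporter gene on the other strand. Strand-specific counting is not stated for these values, so their reads may be shared. The level of nkcc-1 was 42.9 against 32.3 FPKM, and its difference of 0.40 was not called (limma adjusted p = 0.101).

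The remaining 7 called members, all lower in XO hermaphrodite young adults, had log2 fold changes from -1.43 for ins-29 to -0.91 for ins-5 and included ins-30 (-1.38), ins-14 (-1.31), ins-10 (-1.19), ins-28 (-0.96) and ins-26 (-0.95). Of these, ins-29, ins-30 and ins-14 were called in each of the 22 alternative fits. Their values were nearer 0 after quantile normalization for ins-14 (-0.68) and ins-30 (-0.82), as was that of ins-33 (-0.95). With a common sum the calls of ins-28 (-0.57, limma adjusted p = 0.0915), ins-5, ins-10 and ins-26 were lost, and with quantile normalization those of ins-5, ins-10 and ins-26. Leaving out 1 young adult library ended the call of ins-5 without XO hermaphrodite replicates 1 and 2 or XX male replicates 1, 3 and 4 (log2 fold changes -0.93 to -0.75). It ended that of ins-10 without XO hermaphrodite replicates 1 and 2 or XX male replicates 3 and 4 (-1.10 to -0.95), and that of ins-26 in 5 such fits (-0.96 to -0.76). The ins-26 call was also lost without XX male L3 replicate 2 or 3. The ins-10 gene overlaps vps-39, a vacuolar sorting gene on the opposite strand, which moved the other way (2.66, limma adjusted p = 5.5e-07).

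Of the 11 members that did not pass the test, the largest differences were those of ins-23 (1.03, limma adjusted p = 0.054) and the X-linked ins-39 (0.91, limma adjusted p = 0.2). At 5.52 to 8.37 FPKM against 1.99 to 3.61 FPKM, ins-23 did not overlap between the groups. The other X-linked member, ins-9, was at 0.493 to 0.729 FPKM against 0.772 to 2.50 FPKM (-0.58, limma adjusted p = 0.133). The rest were ins-3, ins-11, ins-12, ins-13, ins-22, ins-24, ins-32 and ins-35. The 8 members under the filter were ins-2, ins-8, ins-15, ins-16, ins-19, ins-21, ins-36 and ins-38, and only their values are given. In XO hermaphrodite young adults ins-2 was at 0.671 to 1.14 FPKM and in XX male young adults at 0.0793 to 0.277 FPKM. For ins-19 the values were 0.469 to 0.927 FPKM in XO hermaphrodite young adults and 0 in all 4 XX male young adult libraries. The only libraries with ins-8 above 0 were XX male young adult replicates 1 to 3, at 0.348 to 0.564 FPKM, and ins-38 was at 0 in all 13.

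Neighbouring members did not always move together. On chromosome I the genes ins-24 to ins-30 form a group of 7 in the WBcel235 gene order, with at most 5 protein-coding genes between one member and the next. Of these 7, 6 were lower in XO hermaphrodite young adults, and ins-24 was not called. Over the family 20 of the 32 tested members were lower, and over all genes 33.3%. The group of ins-2, ins-3, ins-4, ins-5, ins-6 and ins-20 on chromosome II had 5 tested genes, of which 4 were lower and ins-3 was not called. The calls of ins-26 and ins-28 in the first group and of ins-5 and ins-6 in the second were lost in some alternatives, as given above. On the same chromosome ins-19 and ins-31 are neighbours, yet the first was above 0 in all 3 XO hermaphrodite young adult libraries and in none of the XX male ones, and the second was the most abundant member in XX males. The only member called higher in this comparison, ins-34, lies in no group of neighbours, so that no group could hold calls in both directions.

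**Figure D4:**
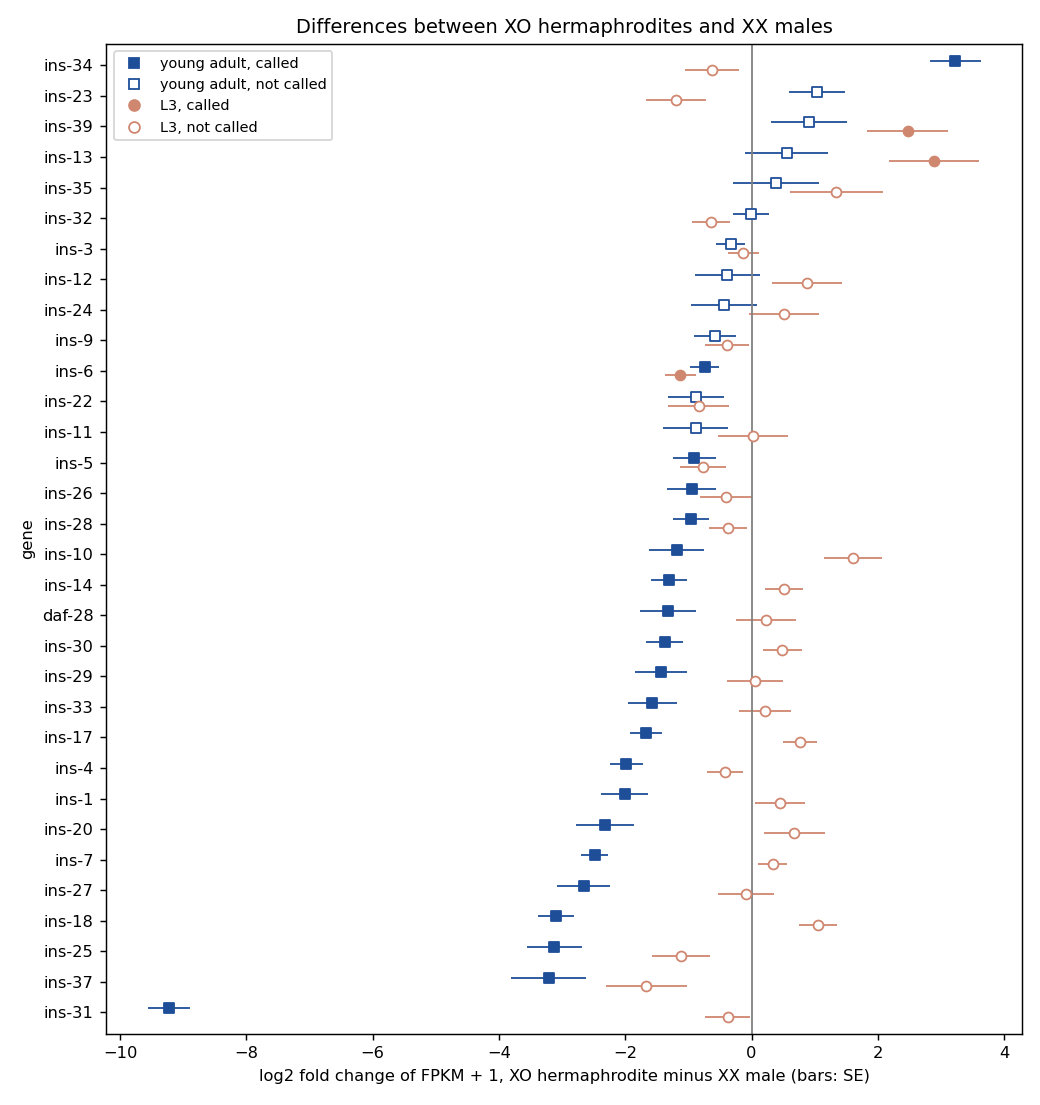
Log2 fold changes of FPKM + 1 (XO hermaphrodite minus XX male, horizontal axis, with SE bars) for the 32 tested members (vertical axis), squares for young adults and circles for L3 larvae; filled symbols passed the test. The young adult squares run from -9.22 for ins-31 to 3.23 for ins-34, and 3 L3 circles are filled, those of ins-39, ins-13 and ins-6.

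Markers of several tissues also differed between the young adults, in a comparison where 33.3% of all genes were called lower and 33.9% higher. The summed level of 16 neuron markers was 970 to 1071 FPKM in XO hermaphrodite and 1210 to 1498 FPKM in XX male young adults, with 10 of the 16 genes called lower and 1 higher (median log2 fold change -0.97). For 10 markers of male ciliated neurons, which carry the mating circuit of males, the sums were 2.71 to 3.60 FPKM against 182 to 253 FPKM, with all 7 tested genes lower. Among them pkd-2 was at 0.0444 against 6.38 FPKM on average. Sperm markers summed to 128 to 653 FPKM against 8418 to 12773 FPKM, with 16 of 16 lower, and 12 intestine markers to 3430 to 4853 FPKM against 8621 to 12811 FPKM, with 7 lower. The 11 oocyte markers went the other way, at 4935 to 5856 FPKM against 117 to 146 FPKM, with 11 of 11 higher. The sums of 10 hypodermis markers were 2220 to 3357 FPKM against 4149 to 7740 FPKM, with 4 lower and 1 higher (median -1.19). The part of these tissues in the insulin-like peptide differences was not tested. No marker in these lists was at 0 in every library.

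In L3 larvae the comparison of the animals gave few calls. Of the 32 tested members, ins-13 and ins-39 were higher in XO hermaphrodites, ins-6 was lower, and 29 did not pass. Among all genes 1.26% were called higher and 4.31% lower. The median log2 fold change was 0.04 over the members and -0.25 over all genes, and 6 members did not overlap between the groups, against 18.1% of all genes. At an unadjusted p under 0.05 there were 10 members. With upper quartile scaling 5 members were higher and 0 lower, and with quantile normalization 3 were higher and 0 lower. The share of all genes at the unadjusted threshold or called in alternative fits is not given, here or below. Such counts are therefore not read as particular to the family.

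The ins-13 gene on chromosome II was at 4.67, 51.7 and 27.3 FPKM in XO hermaphrodite larvae and 0.902, 3.33 and 1.54 FPKM in XX male larvae. It differed by 2.89 on the log2 scale (SE 0.71, limma adjusted p = 0.0367). In the WBcel235 annotation it overlaps acdh-2, an acyl-CoA dehydrogenase gene on the same strand, whose own difference of 0.58 was not called (limma adjusted p = 0.535). The X-linked ins-39 gene was at 25.6, 2.19 and 1.56 FPKM against 0, 0 and 0.272 FPKM, at 2.47 (SE 0.64, limma adjusted p = 0.0442). Much of that value came from XO hermaphrodite replicate 1, without which it was 1.40 and called (limma adjusted p = 0.000868). That fit kept ins-39 in, although the gene passes the filter on the mean only through that replicate. Its call there is therefore no measure of stability. Of the fits that left out 1 library, 2 kept the ins-39 call and 11 lost it, among them each fit without a young adult library. The ins-6 gene was at 5.999, 5.91 and 11.8 FPKM against 19.9, 16.3 and 17.1 FPKM, at -1.13 (SE 0.25, limma adjusted p = 0.023). It was the only member called in the same direction at both stages.

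The L3 tests borrow their estimate of the spread from the adult libraries as well, which vary less. In a limma fit of the L3 libraries alone 0 members were called, with adjusted p = 0.349 for ins-13, 0.382 for ins-39 and 0.325 for ins-6, and 6 members had an unadjusted p under 0.05. Leaving out 1 library of the whole set gave 0 to 6 calls, with 0 without XO hermaphrodite L3 replicate 2 or XX male L3 replicate 1 or 3, 1 without XO hermaphrodite young adult replicate 1 or XX male young adult replicate 1, 2 or 3, 5 without XO hermaphrodite L3 replicate 1 and 6 without XX male L3 replicate 2. Over these fits the log2 fold change was 2.199 to 3.81 for ins-13, 1.40 to 3.09 for ins-39 and -1.43 to -0.98 for ins-6.

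The known agonists and antagonists other than ins-6 were not called at L3. The ins-18 gene was at 56.8, 62.0 and 62.1 FPKM in XO hermaphrodite larvae and 18.7, 52.7 and 23.6 FPKM in XX male larvae. All XO hermaphrodite values were the higher ones, but the difference of 1.05 did not pass the test (limma adjusted p = 0.0581). Without overlap as well, ins-17 was at 53.8, 53.0 and 61.0 FPKM against 32.9, 42.7 and 24.2 FPKM (0.77, limma adjusted p = 0.0986). The groups overlapped for the other 6. Between single libraries of a group daf-28 ranged from 43.4 to 122 FPKM in XO hermaphrodite and 29.4 to 129 FPKM in XX male larvae (0.22, limma adjusted p = 0.789). For ins-33 the ranges were 18.2 to 68.4 and 24.4 to 30.6 FPKM (0.21, limma adjusted p = 0.766). The log2 fold changes of the other 4 were -0.42 for ins-4, -0.13 for ins-3, 0.34 for ins-7 and 0.45 for ins-1. In XX male L3 replicate 1, the L3 library with the highest sperm markers, ins-31 was at 1.42 FPKM and ins-37 at 12.4 FPKM, the highest L3 values of both genes. Markers of male ciliated neurons summed to 19.1 FPKM there and to 5.61 to 7.02 FPKM in the L3 libraries other than XX male L3 replicate 3, which lay between these values.

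Whether the difference between the animals itself changed with stage was tested as an interaction, the young adult contrast minus the L3 contrast. It was called for 15 of the 32 members, with 13 lower and 2 higher, where 23.9% of all genes were called lower and 32.6% higher. The median over the members was -1.55 and that over all genes 0.07. The largest were ins-31 (-8.84, SE 0.49, limma adjusted p = 3.0e-08), ins-18 (-4.14, SE 0.41, limma adjusted p = 5.0e-06) and ins-34 (3.85, SE 0.59, limma adjusted p = 1.6e-04). Next stood ins-20 (-2.997, limma adjusted p = 0.00215), ins-7 (-2.82, limma adjusted p = 1.3e-05) and ins-10 (-2.80, limma adjusted p = 0.00233). The ins-10 libraries of XO hermaphrodites were above those of XX males at L3, at 9.62, 7.59 and 15.2 FPKM against 1.47, 6.26 and 1.88 FPKM, and lower on average in young adults, at 1.25, 0.826 and 3.05 FPKM against 3.44, 2.95, 7.66 and 6.54 FPKM. Among the members with known roles ins-1 (-2.46), ins-17 (-2.44), ins-33 (-1.78) and ins-4 (-1.57) were also called, while daf-28, ins-3 and ins-6 were not. With a common sum ins-33 (-1.29, limma adjusted p = 0.0935) and ins-4 (-0.99, limma adjusted p = 0.0527) were no longer called, and with a pseudocount of 0.1 ins-25 was not (limma adjusted p = 0.0617). The remaining calls were ins-14, ins-23, ins-27 and ins-30.

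**Figure D5:**
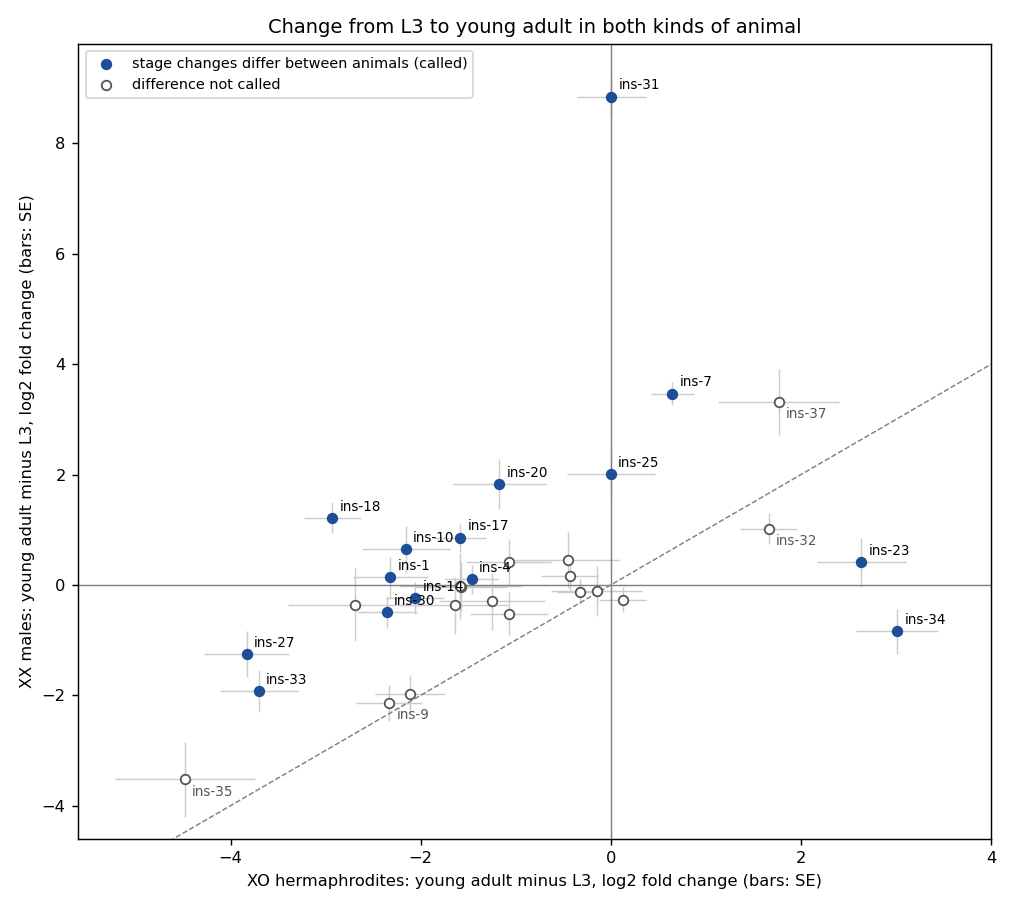
Each point is 1 tested member, with its log2 fold change from L3 to young adult in XO hermaphrodites (horizontal axis) and in XX males (vertical axis) and SE bars; the dashed line marks equal change, and filled points are members whose stage changes differed between the animals. The points of ins-18 and ins-17 lie below 0 on one axis and above 0 on the other, ins-34 and ins-23 lie far right of the line, and ins-35 and ins-9 lie low in both animals.

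From L3 to young adult in XO hermaphrodites, 17 of the 32 members fell, 5 rose and 10 did not pass. Among all genes 28.5% were called lower and 33.7% higher. The median log2 fold change was -1.36 over the members and 0.13 over all genes. With upper quartile scaling 22 members were lower and 3 higher. Markers of other tissues changed over the same interval, with 11 of 16 neuron markers lower and 1 higher, 9 of 12 intestine markers lower and 1 higher, 5 of 10 hypodermis markers lower and 3 higher, 11 of 16 sperm markers higher and 11 of 11 oocyte markers higher (median 6.34). Of 7 tested markers of male ciliated neurons 1 was lower. Their part in the change of the family was not tested. The stages share no libraries, and the growth temperature, which is given for the adults only, cannot be told apart from stage.

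The largest fall was that of ins-35 on chromosome V, a peptide made in the intestine. It was at 122, 19.1 and 30.1 FPKM in larvae and 0.884, 0.874 and 0.969 FPKM in young adults, at -4.48 (SE 0.73, limma adjusted p = 1.8e-04). The ins-27 gene was at 625, 259.65 and 252 FPKM in larvae and fell by 3.83 on the log2 scale (limma adjusted p = 1.2e-05), and ins-33 was at 68.4, 18.2 and 25.8 FPKM and fell by 3.70 (limma adjusted p = 7.3e-06). The adult values of both were given above, and no adult library reached an L3 one. Further falls were those of ins-18 (-2.93), ins-13 (-2.69), ins-1 (-2.32), ins-17 (-1.59), daf-28 (-1.57) and ins-4 (-1.47). The daf-28 call was lost without XO hermaphrodite L3 replicate 1 (-1.10, limma adjusted p = 0.0573) and with a common sum (-0.93, limma adjusted p = 0.129). The other falls were those of ins-5, ins-9, ins-10, ins-12, ins-14, ins-26, ins-30 and ins-39. Of these, ins-39 (-1.58) was at -0.51 and not called without XO hermaphrodite L3 replicate 1, and its call was also lost without any other library except XO hermaphrodite L3 replicates 2 and 3. The call of ins-26 (-1.07) was lost without XO hermaphrodite L3 replicate 2 or 3, XO hermaphrodite young adult replicate 1 or 2 or XX male young adult replicate 1 (-1.08 to -0.73), and was at -1.69 without XO hermaphrodite L3 replicate 1. For ins-12 (-1.64) the call was lost without XO hermaphrodite L3 replicate 2 or 3 or young adult replicate 1 or 2 (-1.503 to -1.21). With a common sum ins-26 (-0.44, limma adjusted p = 0.325), ins-39 (-1.19, limma adjusted p = 0.133) and ins-12 (-1.26, limma adjusted p = 0.0678) were not called, and in a fit of only the XO hermaphrodite libraries none of these 3 was called (limma adjusted p = 0.145, 0.181 and 0.0564). With no filter the calls of ins-26 and ins-39 were lost, and with a pseudocount of 0.1 that of ins-39.

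Rises in XO hermaphrodites were seen for ins-34 (3.01, SE 0.43, limma adjusted p = 6.3e-05), from 2.02, 0 and 0.757 FPKM, and for ins-23 (2.64, limma adjusted p = 3.6e-04), from 0, 0 and 1.03 FPKM to 8.37, 5.52 and 6.99 FPKM. Its neighbour ins-22, whose product is widely used as a marker of dense core vesicles, was not called (-0.15). The other rises were ins-37 (1.76), ins-32 (1.66) and ins-7 (0.65, limma adjusted p = 0.0261), and the ins-7 value turned to -0.0089 with upper quartile scaling. The ins-7 call was lost in a fit of only the XO hermaphrodite libraries (limma adjusted p = 0.0693) and without XO hermaphrodite L3 replicate 3 (0.51) or young adult replicate 2 (0.47), and that of ins-37 with upper quartile scaling (1.43, limma adjusted p = 0.0684) and without XO hermaphrodite L3 replicate 1 or 2 (1.67) or young adult replicate 3 (1.32). The overlapping nkcc-1 rose too (2.095, limma adjusted p = 4.9e-06).

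In XX males the same interval gave 8 rises, 5 falls and 19 members that did not pass. Among all genes 21.7% were called higher and 28.5% lower, and the median log2 fold change was -0.02 over the members and -0.21 over all genes. Over this interval 16 of 16 sperm markers (median 4.62), 7 of 7 markers of male ciliated neurons (median 2.80) and 9 of 11 oocyte markers were higher. Of the neuron markers 2 of 16 were higher and 3 lower, of the intestine markers 4 of 12 were lower, and of the hypodermis markers 6 of 10 were lower and 1 higher. The part of these markers was not tested. The rise of ins-31 from 1.42, 0 and 0 FPKM was the largest (8.85, SE 0.34, limma adjusted p = 3.8e-10). The ins-7 gene rose from 4.04, 2.39 and 3.58 FPKM by 3.47 (SE 0.21, limma adjusted p = 6.1e-08), and ins-37 from 12.4, 0.470 and 1.41 FPKM by 3.31 (SE 0.59, limma adjusted p = 5.1e-04). The others were ins-25 (2.01), ins-20 (1.83), ins-18 (1.21), ins-32 (1.02; 0.50 and not called with quantile normalization) and ins-17 (0.86). The call of ins-17 was lost without XX male L3 replicate 3 (0.65).

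The falls in XX males were ins-35 (-3.52, SE 0.69, limma adjusted p = 9.1e-04), ins-9 (-2.14, limma adjusted p = 1.4e-04), ins-5 (-1.98), ins-33 (-1.92) and ins-27 (-1.26). For ins-35 the values were 3.90, 39.01 and 23.2 FPKM in larvae and 0.228, 0.626, 0 and 1.28 FPKM in young adults, so that it fell in both animals to below 1.3 FPKM. The X-linked ins-9 was at 7.04, 6.55 and 17.1 FPKM in XX male larvae and also fell in XO hermaphrodites (-2.33, limma adjusted p = 8.8e-05), from 9.20, 6.80 and 5.17 FPKM. The ins-27 groups overlapped, and its call was lost without XX male L3 replicate 1 (-1.15) or 2 (-1.04) or XX male young adult replicate 1 (-1.16) or 3 (-1.10). Side by side, 5 members fell in both animals, 3 rose in both (ins-7, ins-32 and ins-37), 2 fell in XO hermaphrodites and rose in XX males (ins-17 and ins-18), and 10 fell in XO hermaphrodites and were not called in XX males. No member rose in XO hermaphrodites and fell in XX males.

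Genes of the receptor and the signalling pathway behind it were more often called higher than lower in XO hermaphrodite young adults. Of 19 pathway genes 11 were higher in XO hermaphrodites and 3 were lower, and the median difference was 1.14. Among all genes 33.9% were called higher and 33.3% lower, with a median of -0.11. The receptor gene daf-2 was at 30.998 ± 2.50 FPKM (SD, n = 3) against 11.9 ± 3.10 FPKM (n = 4), at 1.34 (limma adjusted p = 0.00811). Also higher were hcf-1, a partner of DAF-16 (2.07), the kinase gene age-1 (1.85, limma adjusted p = 4.7e-05) and akt-1 (1.16, limma adjusted p = 1.7e-05). Lower were the 14-3-3 gene ftt-2 (-1.57), the insulin receptor substrate homolog ist-1 (-1.08) and the kinase gene sgk-1. The transcription factor genes daf-16 (0.15, limma adjusted p = 0.619) and skn-1 (0.60, limma adjusted p = 0.0746) were not called. At L3 limma called 1 of the 19, as lower, where 4.31% of all genes were called lower and 1.26% higher. The pathway count ranged from 0 to 11 when single libraries were left out, with 11 lower without XO hermaphrodite L3 replicate 1. The share of all genes in those fits is not given, so that range is not read as a result about the pathway.

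Peptide hormones are cut from precursors and released from dense core vesicles, and 11 of 19 genes of that machinery were lower in XO hermaphrodite young adults, with 1 higher and a median of -0.80. The shares over all genes were 33.3% lower and 33.9% higher, with a median of -0.11. The carboxypeptidase gene egl-21 was at 56.8 ± 4.75 against 201 ± 28.1 FPKM, at -1.80 (limma adjusted p = 2.0e-06). The proprotein convertase gene egl-3 was at 59.8 ± 7.53 against 168 ± 20.5 FPKM, at -1.47 (limma adjusted p = 3.0e-05). The exocytosis gene unc-18 was lower (-2.06, limma adjusted p = 1.6e-04), and the protein kinase C gene pkc-1 was the higher one (1.05, limma adjusted p = 0.0103). At L3 limma called 0 of the 19, with 5 at an unadjusted p under 0.05, and 8 were called without XO hermaphrodite L3 replicate 1. The matching shares of all genes are not given for the last 2 counts, so they are not read as particular to this list. Since egl-3, egl-21, ric-4 and unc-64 also stand among the neuron markers, these counts are not separate from the neuron sums above.

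Of the genes known to respond to DAF-16, 3 of 25 tested were higher in XO hermaphrodite young adults, 9 lower and 13 not called. The list was counted whole, without separating genes that DAF-16 raises from genes that it lowers. Its counts and median therefore give no direction of DAF-16 activity. The share called lower was near that of all genes, 33.3%, and the share called higher was below their 33.9%; the median was -0.21, against -0.11 over all genes. The higher ones were the yolk protein genes vit-5 (5.04, limma adjusted p = 4.6e-07) and vit-2 (4.16, limma adjusted p = 7.1e-05) and icl-1, and among the lower ones were dod-22 (-3.54, limma adjusted p = 6.7e-06) and dod-3 (-2.60, limma adjusted p = 0.0107). At L3 the ferritin gene ftn-1 was higher (1.31, limma adjusted p = 0.0391) and lea-1 lower (-1.58, limma adjusted p = 0.0237). Without XO hermaphrodite L3 replicate 1 there were 6 calls at L3, and without XX male L3 replicate 1 there were 0. Shares of all genes in these fits are not given.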

How the data were processed

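FPKM of each gene was deposited by the authors in 1 table, per the file headers, from stranded poly(A) RNA libraries of whole worms, per the labels' protocols. The submitters' processing notes list Cufflinks 2.2.0. The sources used here give no aligner, annotation, genome build or strand setting. All 14 columns matched a sample by name, and the reverted library was not used. Replicate numbers here follow the sample titles. The column headers number XO hermaphrodite young adult replicates 2 and 3 as 3 and 4. Of 20417 rows 6 were repeats; of 20411 genes 22 were empty and 13 had values only in XX male young adults, which left 20376. FPKM holds no counts, so no counting intervals are given. In R 4.3.3, limma 3.58.1 (lmFit, eBayes with trend, 4 group means, no covariates) was fitted to log2(FPKM + 1) of the 14628 genes whose mean reached 1 FPKM, with Benjamini-Hochberg adjustment over all of them and a threshold of 0.05. The fit was tested on simulated data in which a gene had the same spread in all groups. That test therefore does not bear on the larger spread of the L3 libraries. Tables were handled in Python 3.11.15 (numpy 2.4.6, pandas 2.3.3) and figures drawn with matplotlib 3.10.9. Gene order and overlaps come from an Ensembl annotation of WBcel235, where 39 of the 40 members have the same name; ins-38 has another entry there. Members and gene lists were chosen with earlier results of these data known. Named were up to 10 called members per comparison of animals and up to 6 for the interaction and each stage comparison, by absolute log2 fold change; members with known roles; 6 core pathway genes, of which 1 is not reported here; and up to 2 called genes per list and direction. A few others named beside them (ins-10, ins-22, ins-23, ins-39, egl-3, sgk-1, icl-1 and the members of short counts) were picked after their values were seen. Listed genes not found under their names, such as rab-2, cpd-1, dod-8 and maco-1, were not analysed here. Alternatives covered the pseudocount, the filter, 3 scalings, fits of only the groups compared, a replicate block, a threshold of 0.01 and leaving out each library. Fits that left out a library kept the genes tested in the main fit.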

Additional observations from a re-analysis of the deposited data

Results flagged for a closer look

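Among the 32 tested members, 4 had an XX male young adult library far from the other 3 of its group, and 3 of these 4 were in replicate 4. They were ins-31 at 1071 FPKM, ins-17 at 99.2 FPKM and ins-20 at 10.2 FPKM in replicate 4, each above the rest, and ins-7 at 39.1 FPKM in replicate 3, below the rest. Chance gives such a gap in about 1 of 20 groups. Replicate 4 also had the highest sums of neuron (1498 FPKM), male ciliated neuron (253 FPKM), intestine (12811 FPKM), sperm (12773 FPKM) and oocyte (146 FPKM) markers of its group. Its sum of hypodermis markers was the lowest of the group (4149 FPKM). The part of these markers in the gaps was not tested. Without replicate 4 the young adult calls of ins-7, ins-17, ins-20 and ins-31 all held.

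For 15 members the difference between the animals changed with stage, by the limma interaction term on log2(FPKM + 1), given as the young adult contrast minus the L3 contrast. Lower in young adults relative to L3 were ins-31 (-8.84), ins-18 (-4.14), ins-20 (-2.997), ins-7 (-2.82), ins-10 (-2.80), ins-27 (-2.57), ins-1 (-2.46), ins-17 (-2.44), ins-25 (-2.01), ins-30 (-1.87), ins-14 (-1.82), ins-33 (-1.78) and ins-4 (-1.57). Higher were ins-34 (3.85) and ins-23 (2.23).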

How the results depend on the processing

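The L3 count of 3 called members became 1 with no filter, 5 with upper quartile scaling and 0 in a fit of only the L3 groups, with a replicate block or at a threshold of 0.01, and ranged from 0 to 6 when single libraries were left out. In the fits of only the L3 groups 6 members, and with the block 5, had an unadjusted p under 0.05. The other counts stayed within 1.5 times: 16 to 26 in young adults, 12 to 20 for the interaction, and for the change from L3 to adult 16 to 25 (XO hermaphrodites) and 9 to 14 (XX males). Of the called members, 15 of 21, 12 of 15, 15 of 22 and 9 of 13 kept their call in every alternative at 0.05 in which they were tested, and 0 of 3 at L3. The rise of ins-7 in XO hermaphrodites turned to -0.0089 with upper quartile scaling, the one called member whose sign changed in any alternative. Deviations from the group means correlated at -0.06 to 0.30 between libraries of equal number. Libraries of unequal number were not compared, so whether equal numbers mark a shared batch cannot be told. The block, on the numbers in the sample titles, gave 26, 16, 17 and 11 calls for the comparisons other than L3. XX male young adult replicate 4 has no partner there, whereas by the column headers replicate 2 of that group has none. The stage calls lost with the block were those of ins-7, ins-12, ins-13, ins-26 and ins-39 in XO hermaphrodites (limma adjusted p = 0.107, 0.0579, 0.0693, 0.146 and 0.202) and of ins-17 and ins-18 in XX males (0.0912 and 0.0661). Scaling moved the young adult median of all genes from -0.11 to 0.20 (common sum), 0.27 (quantile) or -0.37 (upper quartile), and that of the members from -1.08 to -0.83, -0.75 or -1.35. At L3 the median of all genes moved from -0.25 to -0.44, 0.01 or 0. Pseudocount and low depth limit ins-25, ins-20 and other genes near 0.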
